A study of Mus musculus with 9 samples.

Results

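Retinoic acid was compared with its solvent in aortic valves taken from newborn mice and kept in culture. The comparison rests on the 3 arrays of explants given all-trans retinoic acid (ATRA) and the 3 arrays of explants given dimethyl sulfoxide (DMSO), 6 of the 9 arrays in the series, and it covers every probe set with a gene symbol, 23397 of 28270 measured. Each array held the RNA of 1 pool of valves from 5 to 6 C57BL/6J pups at postnatal day 1, and the labels call the pools of a group biological replicates. Both groups were cultured for 48 hours on floating filters in DMEM with fetal bovine serum. The ATRA group received the compound at 1 µmol/L in DMSO, and the control group received DMSO alone at 0.001%. The labels list no genetic change and do not give the sex of the pups. Explants of the 3 other arrays received LE540, a retinoic acid receptor antagonist, at a dose and in a vehicle that the labels do not give. These arrays enter the estimate of spread and are otherwise given as levels. Because whole pooled explants were measured, fewer cells of a type and less RNA per cell cannot be told apart.

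Retinoic acid is made from vitamin A inside cells and binds the receptors RARα, RARβ and RARγ, which sit on DNA as heterodimers with retinoid X receptors. The heterodimer recognises direct repeats of a hexamer, and when the ligand binds, nearby genes are transcribed. Some of the genes induced in this way form a feedback loop: Cyp26 enzymes hydroxylate retinoic acid, Dhrs3 removes its aldehyde precursor, and Rarb is itself a receptor. In the heart, retinoic acid helps to pattern the outflow tract and the valve primordia, and the mature valve consists of interstitial cells in a layered matrix beneath an endothelium.

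The promoter of Cyp26a1, which rose with ATRA, and that of Rarb are shown because each holds the classic response element in the window examined, a direct repeat of the hexamer with 5 bases between its copies. Each sequence is the 250 bases before a RefSeq start site (GRCm38.p6), written 5′ to 3′ on the strand of the gene, and capitals mark the hexamer, which was searched in its usual form AGGTCA and as AGTTCA, as GGGTCA and as GGTTCA, on either strand. The Cyp26a1 stretch is chr19:37697558-37697807 on the plus strand, and the Rarb stretch is chr14:16575477-16575726 on the minus strand.
Cyp26a1: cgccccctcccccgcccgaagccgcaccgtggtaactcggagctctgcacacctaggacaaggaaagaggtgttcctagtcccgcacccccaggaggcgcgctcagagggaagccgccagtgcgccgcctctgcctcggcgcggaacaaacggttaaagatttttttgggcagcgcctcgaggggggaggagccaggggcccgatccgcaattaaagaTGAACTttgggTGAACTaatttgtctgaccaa
Rarb: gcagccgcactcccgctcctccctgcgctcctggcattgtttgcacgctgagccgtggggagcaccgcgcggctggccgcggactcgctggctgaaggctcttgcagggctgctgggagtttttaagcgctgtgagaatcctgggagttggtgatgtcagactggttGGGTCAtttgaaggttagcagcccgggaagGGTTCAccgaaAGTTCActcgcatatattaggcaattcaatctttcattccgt
The Cyp26a1 repeat begins at position -32 from the start and reads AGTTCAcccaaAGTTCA on the strand opposite to the gene. The Rarb repeat begins at position -53 and reads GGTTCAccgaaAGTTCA on the strand of the gene. Rarb did not pass the test described below and was examined by name together with Cyp26b1. The window of Cyp26b1 held 0 hexamers, and so did every window of Dhrs3, which rose with ATRA.

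Windows of 300 bases, from 250 bases before to 50 bases after a start, were available for 10 of the 16 genes that passed the test, 19 windows in all. At least 1 hexamer on either strand was found in 13 of the 19 windows (68.4%), against 43.7% of all 32851 windows of the table. Several windows can belong to 1 gene. Counted by gene, a hexamer was found in 7 of 10, against 46.9% of 27025 genes. The repeat with 5 bases between the hexamers was found in 1 of the 19, that of Cyp26a1 (5.26%), against 32 of 32851 (0.0974%). Repeats with 2 or with 1 base between the hexamers were in 0 of the 19, and in 0.268% and 0.222% of all windows. These counts describe letters in a short window near the start, and distant elements were not searched.

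The 6 arrays were alike in scale, and the summed levels of some cell type markers differed between them. Array medians of the series lay between 123.61 and 128.13 intensity units, and Pearson's r between the log2 values of 2 of the 6 arrays was 0.976 to 0.991 (a description, since probe sets do not count as replicates). Principal components 1 and 2 of the 6 arrays held 32.4% and 26.8% of the variance. Interstitial markers (14 genes) summed to 23222 to 27962 in the DMSO arrays and 31762 to 33277 in the ATRA arrays, so the groups did not overlap. The 16 endothelial markers summed to 2787 to 4300 and to 3466 to 7082, and ATRA replicate 2 had the highest sum. For the 19 cardiomyocyte markers the sums were 15351 to 30622 with DMSO and 14714 to 25631 with ATRA, so heart muscle RNA was present in all 6 explant pools, at levels that overlapped. Macrophage markers (15 genes) ran from 3311 to 6295 and from 3043 to 5566.

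**Figure D1:**
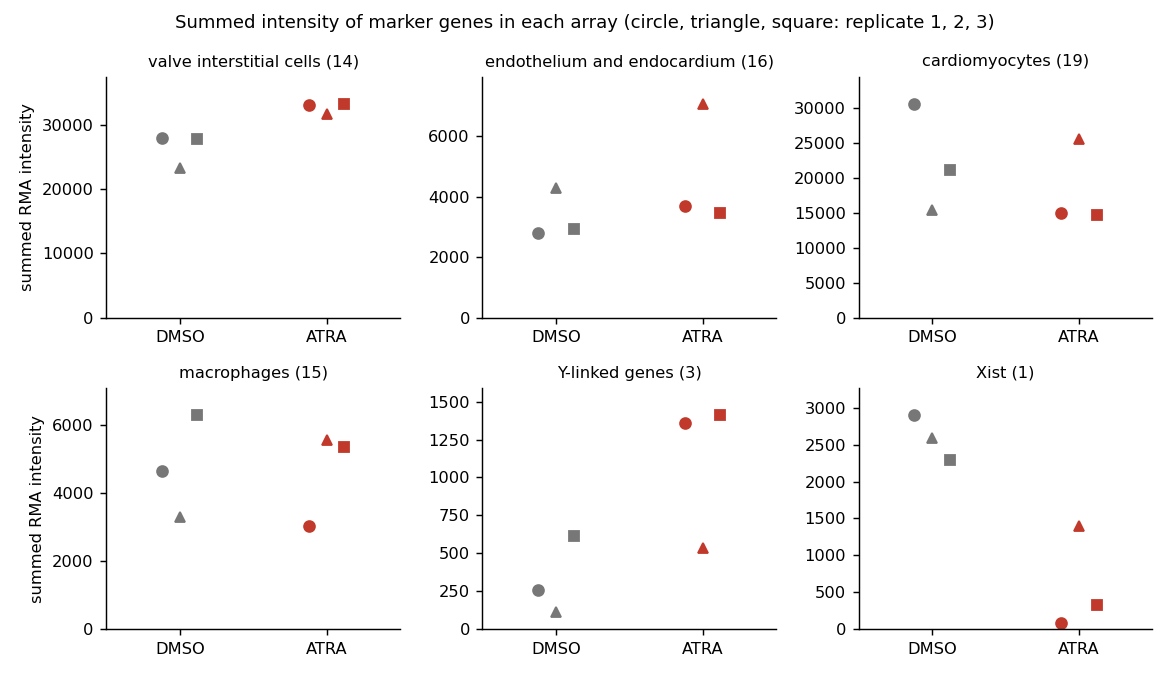
Summed intensity of the measured marker genes of each cell type (vertical axes, linear, from 0) in the 3 DMSO and the 3 ATRA arrays, 1 point per array, with the symbol giving the replicate number. Interstitial sums did not overlap between the groups, Xist lay between 86 and 1393 in the ATRA arrays and between 2294 and 2903 in the DMSO arrays, and the cardiomyocyte sums overlapped.

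Sex-linked RNA also differed between the groups. Xist, which silences an X chromosome in female cells, was at 2903, 2589 and 2294 in DMSO replicates 1, 2 and 3 and at 85.7, 1393 and 326 in the ATRA replicates, without overlap (log2 change -2.93, adjusted p = 0.999). The 3 measured Y-linked genes summed to 110 to 613 in the DMSO arrays and 533 to 1411 in the ATRA arrays. The Y-linked sums overlapped between the groups. In LE540 replicates 1, 2 and 3 Xist was at 62, 1652 and 1361, also below all DMSO arrays. The Y-linked sums there were 1127, 213 and 1334, so these shifts were not particular to ATRA. The part of the sex make-up of the pools in these values was not tested. With a Y-linked score as a covariate 7 probe sets passed instead of 19; 4 of the 7, those of Tgm2, Pparg and Fap and 1 of Piezo2, also passed without it.

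ATRA raised a small number of genes and lowered 1. In the limma fit over all 9 arrays, 19 of 23397 probe sets (0.0812%) passed the threshold, an adjusted p (Benjamini-Hochberg) under 0.1, with 18 higher (0.0769%) and 1 lower (0.00427%) with ATRA. They belong to 16 genes, 15 of which rose, and 14 of the 19 changed over 2-fold, 13 up and 1 down (0.0598%). At an unadjusted p under 0.05 the split was nearly even, with 547 probe sets higher and 552 lower. These 1099 of 23397 are below the share of 0.05 that such a p gives where nothing changes. At an unadjusted p under 0.01 it was 178 higher and 97 lower, together a little above a share of 0.01. The 18 probe sets that rose were higher in 3 of 3 ATRA arrays than in any DMSO array, a pattern shared by 4.97% of all probe sets, while 6.34% lay below the DMSO arrays in the same way.

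**Figure D2:**
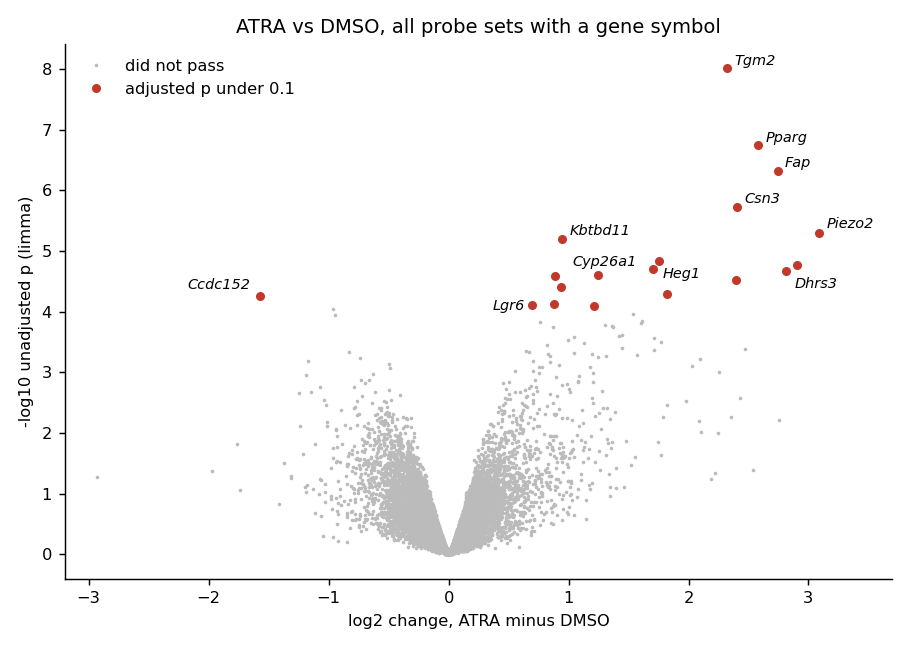
Log2 change between ATRA and DMSO (horizontal axis) against the -log10 of the unadjusted p from limma (vertical axis) for the 23397 probe sets. Red points are the 19 that passed at an adjusted p under 0.1, of which 18 lie on the right and 1, Ccdc152, on the left.

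The count of calls depended on the arrays in the fit. With DMSO replicate 1, 2 or 3 left out, 4, 10 and 4 probe sets passed. With ATRA replicate 1, 2 or 3 left out, 6, 22 and 13 passed. Leaving out an LE540 array gave 21, 6 and 10 for replicates 1, 2 and 3. Tgm2, Pparg, Fap and Csn3 passed in all 9 of these fits, the brightest Piezo2 probe set in 6 and Kbtbd11 in 5, whereas Krt18 and Zfp57 passed in 0. Without DMSO replicate 1 the adjusted p of the probe sets that no longer passed went up to 0.521. The signs of all 19 changes were kept in every fit. That had to be so, because the ATRA and DMSO arrays did not overlap for any of the 19.

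Arrays that carry the same replicate number deviated together from their group means, with r = 0.143, 0.342 and 0.220 across probe sets for numbers 1, 2 and 3. For arrays of different number r was -0.240 to 0.0613. Deviations within a group sum to 0, so positive same-number values by themselves push the other values down. When the replicate number entered the model as a block, 29 probe sets passed, 29 of them higher (0.124%) and 0 lower, and 16 were shared with the fit without the block. With the block in a fit of the 6 ATRA and DMSO arrays alone, 13 probe sets passed, all higher (0.0556%), and 7 of them also passed in the 9-array fit without the block. These 7 were the probe sets of Tgm2, Pparg, Fap, Csn3, Dhrs3 and Cyp26a1 and 1 of Heg1. In that fit the 3 Piezo2 probe sets were at adjusted p values of 0.104, 0.139 and 0.184, and Kbtbd11, Ak1, Enpp3, Krt18, Zfp57, Creb3l1, Lgr6, Ccdc152 and the other Heg1 probe set lay between 0.124 and 0.243. Across all probe sets the 3 same-number differences were above 0 together in 13.2% and below 0 together in 16.2%. Differences above 1 log2 in all 3 pairs occurred in 43 probe sets (0.184%), and differences below -1 in 1 (0.00427%).

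Genes that break down retinoic acid or its precursor were among those that rose. In what follows, intensities are given in the order of replicates 1, 2 and 3, and a log2 change is the ATRA mean minus the DMSO mean with its standard error (SE). Dhrs3 (probe set 10510129), a reductase that turns retinaldehyde back into retinol, was at 630.2, 282 and 636 with DMSO and at 3983, 2265 and 4311 with ATRA. The lowest ATRA array was more than 3 times the highest DMSO array, and both groups had their lowest value in replicate 2 (log2 change 2.81, SE 0.34, 7.01-fold, adjusted p = 0.0508). The same-number differences were 2.66, 3.01 and 2.76, and the adjusted p with the block was 0.00933.

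Cyp26a1 (10462853), the main hydroxylase of retinoic acid, was at 47.9, 54.6 and 43.8 with DMSO and at 119.7, 132 and 97.1 with ATRA. The groups did not overlap, although the DMSO values lay under the lower quartile of each array, where background makes up an unknown part of the signal (log2 change 1.25, SE 0.15, adjusted p = 0.0512). Cyp26b1, a second hydroxylase of the family, did not pass, at 107, 101 and 120.5 against 188, 172 and 245 (log2 change 0.87, SE 0.14, adjusted p = 0.146). Its groups did not overlap either. Cyp26c1, the remaining member, was at 90.9, 86.1 and 103 against 103, 104 and 88.4, with overlap (log2 change 0.08, adjusted p = 0.999).

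Of the 8 measured genes of retinoic acid breakdown and feedback, 7 were higher with ATRA and 2 passed, both upward. Their median log2 change was 0.64, against -0.00732 over all 19934 genes, of which 9592 were higher. With dim probe sets filtered at the lower quartile, which left out Cyp26a1, the median of the list was 0.41. For this and the lists that follow, a median within 0.1 of 0 is given as a value and not as a direction: of 18 such lists among 29, 12 had a median of the opposite sign in at least 1 alternative setting. Rarres2 encodes chemerin, a secreted attractant whose gene responds to retinoids, and was at 201, 192 and 269.7 against 486, 699 and 622. The ATRA arrays were all higher, yet the change did not pass (log2 change 1.45, SE 0.24, adjusted p = 0.189). Nrip1, a nuclear receptor corepressor, was at 475, 519 and 463 against 694, 684 and 569, a log2 change of 0.41 that also did not pass (adjusted p = 0.735).

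No retinoic acid receptor gene passed. Rarb (10417713) was at 359, 147 and 212 with DMSO and at 1524, 668 and 1182 with ATRA. The spread within each group was wide, but the same-number differences were 2.09, 2.18 and 2.48. Its log2 change was 2.25 (SE 0.46, 95% confidence interval 1.20 to 3.30), with an adjusted p of 0.353, or 0.419 with the block in the 9-array fit and 0.0451 with the block in the fit of the 6 arrays, the 1 gene to pass there that passed in neither 9-array fit. Rarg was at 169, 175 and 181 against 202, 198 and 211 (log2 change 0.22, adjusted p = 0.999). Rara was at 169.7, 164 and 192 against 161, 162 and 164 (log2 change -0.11), and Rxra, a dimer partner, had a log2 change of 0.13. Of the 6 receptors measured, 4 were higher with ATRA (median 0.12).

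Genes for retinoid uptake, carriage and synthesis held no call among 14 measured, 9 of them higher (median 0.07). Fabp5, a lipid carrier that can deliver retinoic acid to the nucleus, was at 1109, 635 and 1105 against 1864, 1432 and 1768 (log2 change 0.87, SE 0.21, adjusted p = 0.604). The ATRA arrays lay above the DMSO arrays for Fabp5. Stra6, the retinol uptake receptor, had a log2 change of 0.02 (95% interval -0.19 to 0.24). Crabp1 and Crabp2, cytosolic carriers of retinoic acid, had log2 changes of -0.03 (-0.66 to 0.61) and 0.07 (-0.53 to 0.67). Aldh1a2, which makes retinoic acid, was at 180.2, 165 and 109.9 against 164, 536 and 130.3, so its log2 change of 0.60 (-0.86 to 2.07) came from ATRA replicate 2 and was -0.02 without that array.

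Tgm2 had the lowest p of all probe sets. It encodes tissue transglutaminase, an enzyme that crosslinks proteins and is a long-known retinoic acid target. Probe set 10489204 was at 118, 109.9 and 108 with DMSO and at 505, 572 and 609.7 with ATRA. Both groups were tight and far apart (log2 change 2.32, SE 0.11, 95% interval 2.07 to 2.58, 5.00-fold, adjusted p = 0.000228).

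Of 18 other known retinoic acid targets measured, 13 were higher with ATRA (median 0.08), and Tgm2 was the one that passed. Meis2, a homeobox cofactor of Hox proteins, was at 1155, 913 and 899 against 2019.7, 1329 and 1791, without overlap (log2 change 0.78, SE 0.34, adjusted p = 0.999). Plat, tissue plasminogen activator, was at 408, 588 and 454 against 552, 848 and 636, with overlap between groups but same-number differences of 0.44, 0.53 and 0.49. Hox genes of paralogue groups 1 to 5, which are direct targets in the embryo, were higher in 13 of 14 (median 0.10) with 0 calls, and those of groups 6 to 13 in 13 of 23 (median 0.00255). Hoxb5 had a log2 change of 0.34 (adjusted p = 0.999) and Hoxa4 one of 0.29 (0.999).

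**Figure D3:**
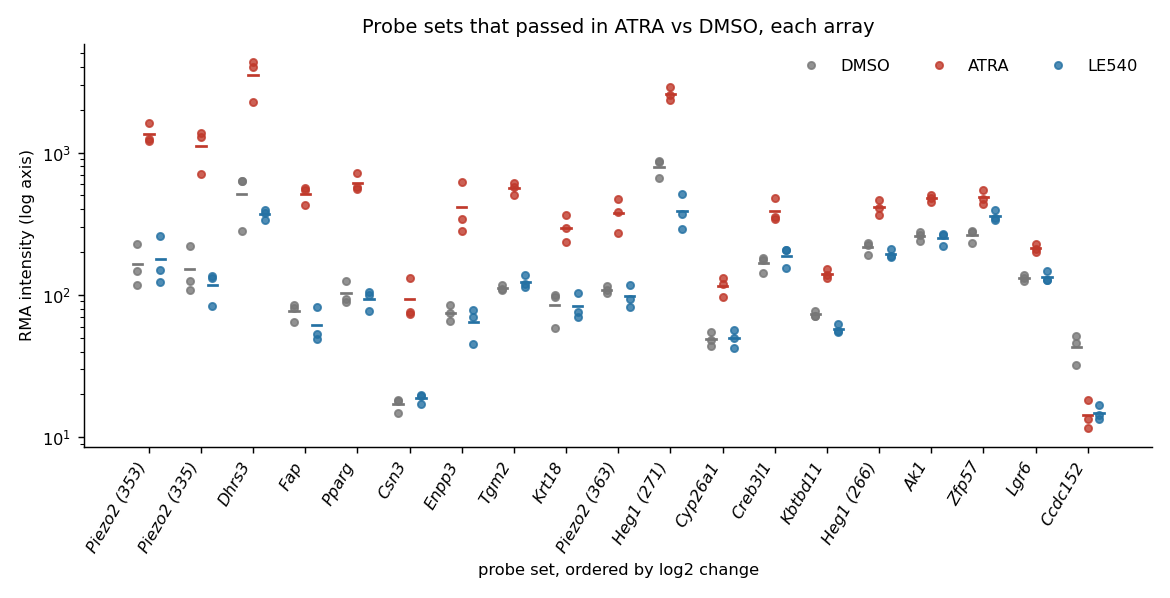
Intensity (vertical axis, log scale) of the 19 probe sets that passed (columns), in each of the DMSO, ATRA and LE540 arrays, 1 point per array. Digits in brackets mark different probe sets of 1 gene. In 18 columns the 3 ATRA points lie above the other 6, and in the column of Ccdc152 the DMSO points lie above the rest.

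Piezo2 had the greatest fold change of the probe sets that passed. The gene encodes a cation channel opened by stretch of the membrane and is best known in touch and proprioceptive neurons. Its 3 probe sets are separate measurements of 1 gene and passed each by itself. Probe set 10459353 was at 148, 228 and 118 with DMSO and at 1199.8, 1254 and 1627 with ATRA. The ATRA values were more than 5 times the highest DMSO value (log2 change 3.09, SE 0.31, 95% interval 2.38 to 3.80, 8.51-fold, adjusted p = 0.0237). Probe set 10459335 was at 108, 220.2 and 125 against 1286, 703 and 1375 (log2 change 2.90, SE 0.34, adjusted p = 0.0491). The smallest of the 3 changes came from 10459363, at 108, 115 and 104 against 383, 273 and 473 (log2 change 1.75, SE 0.20, adjusted p = 0.0491). In each of the 3, the groups were separate, and replicate 2 had the lowest same-number difference (2.46, 1.67 and 1.24).

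No other stretch-related channel examined passed the threshold. Of 11 mechanosensitive and related channels measured, 3 were higher with ATRA and Piezo2 was the only call (median -0.06). Piezo1, its paralogue, had a log2 change of -0.06, Trpv4 one of -0.04 and Trpc6 one of 0.42. Without DMSO replicate 1, without DMSO replicate 3 or without ATRA replicate 1, no Piezo2 probe set passed, with 0.201 as the highest adjusted p of 10459353.

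The enzymes Fap, Enpp3 and Ak1 rose with ATRA. Fap (10483081), fibroblast activation protein, is a prolyl peptidase on the surface of stromal cells during remodelling. It was at 80.8, 85.1 and 64.3 with DMSO and at 431, 560.5 and 550.4 with ATRA. No ATRA array came near the DMSO range (log2 change 2.74, SE 0.21, 6.70-fold, adjusted p = 0.00372). Among 11 prolyl peptidases and surface proteases 8 were higher and Fap alone passed (median 0.05). Anpep, aminopeptidase N, was at 376, 170.0 and 223 against 2209.9, 703 and 566, with the largest SE of the 11, and did not pass (log2 change 1.98, SE 0.49, adjusted p = 0.59). Dpp4, the closest relative of Fap, had a log2 change of 0.02.

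Enpp3 (10368317) splits nucleotides outside the cell and was at 65.1, 74.5 and 84.7 with DMSO and at 344, 623 and 281 with ATRA. ATRA replicate 2 was highest, and all ATRA arrays exceeded the DMSO arrays (log2 change 2.40, SE 0.30, 5.27-fold, adjusted p = 0.0538). Ak1 (10471474), an adenylate kinase that keeps adenine nucleotides in balance, was at 239, 264 and 275 against 450.3, 482 and 506. Its same-number differences of 0.91, 0.87 and 0.88 were nearly equal (log2 change 0.89, SE 0.11, adjusted p = 0.0512). Of 10 extracellular nucleotide enzymes and adenylate kinases 7 were higher, 2 passed and the median was 0.42. Ada, which deaminates adenosine, was at 166, 92.6 and 140.3 against 274, 275 and 184 without passing (log2 change 0.89, SE 0.28, adjusted p = 0.864).

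Pparg was the fat cell gene that passed the threshold. It encodes the nuclear receptor PPARγ, which also pairs with retinoid X receptors and directs fat storage. Probe set 10540897 was at 94.2, 89.9 and 126 with DMSO and at 715, 558 and 570.3 with ATRA. All ATRA arrays were more than 4 times the highest DMSO array (log2 change 2.58, SE 0.18, 5.98-fold, adjusted p = 0.00213). Of the 16 fat cell genes 9 were higher (median 0.04) and Pparg alone passed. Fabp4, a fatty acid carrier of fat cells and capillary endothelium, was at 254, 434 and 229.5 against 719, 1124 and 496. Its groups did not overlap, and it did not pass without the replicate block (log2 change 1.33, SE 0.44, adjusted p = 0.894, or 0.0408 with the block and 0.109 with the block in the fit of the 6 arrays). Plin2, a lipid droplet coat protein, had a log2 change of 0.61 (adjusted p = 0.609), and Cebpa, the partner factor of Pparg in fat cells, one of -0.36 (adjusted p = 0.999).

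The summed adipocyte markers, which include Fabp4, were 792 to 1006 with DMSO and 1035 to 1652 with ATRA. Adipoq, the defining fat cell hormone, lay under the lower quartile on all 6 arrays and had a log2 change of 0.04, and Plin1 one of 0.03.

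Heg1 encodes a membrane protein of the endothelium and endocardium that works with the cerebral cavernous malformation proteins and is needed for heart growth. Probe set 10435271 was at 659, 874 and 855 with DMSO and at 2529.8, 2359 and 2878 with ATRA. The groups were separate by more than 2-fold (log2 change 1.71, SE 0.21, adjusted p = 0.0508). The other probe set, 10435266, was at 192, 230.4 and 226 against 463, 367 and 410.4 (log2 change 0.94, SE 0.12, adjusted p = 0.0644), and did not pass with the block (0.148). The 2 probe sets differ in the size of the change and share its direction. Of the 9 genes of the Heg1 pathway 6 were higher, with Heg1 the only call (median 0.05, or -0.016 without ATRA replicate 2); Krit1, its binding partner, had a log2 change of -0.04. Klf2, a flow-regulated factor downstream, was at 284, 317 and 286 against 256, 211 and 235 (log2 change -0.34, adjusted p = 0.999).

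Creb3l1 (10485117), a membrane-bound factor that promotes collagen secretion, was at 143, 182 and 176 against 353, 341 and 477. The groups did not overlap and the change stood just inside the threshold (log2 change 1.21, SE 0.18, adjusted p = 0.0984). Of 12 genes of the Creb3 family and secretory load, 5 were higher (median -0.03) and 1 passed. Lgr6 (10357965), a receptor for R-spondins that marks stem cells in skin, was at 126, 131 and 139 against 210.3, 201 and 229.6. That was the smallest change to pass (log2 change 0.70, SE 0.10, adjusted p = 0.0984), and it did not pass with the block (0.164). Among 22 Wnt receptor and R-spondin genes 14 were higher and 1 passed (median 0.03); Sfrp2, a secreted Wnt inhibitor, had a log2 change of 0.38 (adjusted p = 0.999).

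Zfp57 (10445071), a zinc finger protein that maintains imprints, was at 276, 279.6 and 233 with DMSO and at 549, 469 and 435 with ATRA (log2 change 0.88, SE 0.13, adjusted p = 0.0984). LE540 arrays were also above all DMSO arrays, at 395, 338 and 345. Igf2, an imprinted growth factor, was at 559, 493 and 383 against 907, 781 and 679 and did not pass (log2 change 0.73, SE 0.16, adjusted p = 0.471). Of 12 imprinted genes and regulators 7 were higher (median 0.09).

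Kbtbd11 (10570516), a Kelch and BTB domain protein, was at 77.1, 71.0 and 71.1 against 153, 138 and 132. The DMSO and ATRA arrays were tight and apart (log2 change 0.95, SE 0.10, adjusted p = 0.0246). Its other probe set, 10570513, was also higher, by less and with overlap between the groups, and did not pass. It was at 109 ± 16.2 against 149 ± 37.6 (SD, n = 3 arrays each, log2 change 0.43, adjusted p = 0.999). Csn3 (10522895), the kappa casein of milk, was at 18.4, 14.9 and 18.1 against 73.4, 75.7 and 131. The DMSO values lay deep in the dim range, so the fold is uncertain, but the 3 ATRA arrays were all above the lower quartile (log2 change 2.40, SE 0.22, adjusted p = 0.011). With the Y-linked covariate its adjusted p was 0.118.

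Krt18 (10427075), a keratin of simple epithelia, was at 58.7, 96.6 and 99.3 with DMSO and at 293, 362 and 235 with ATRA (log2 change 1.82, SE 0.25, 3.54-fold, adjusted p = 0.0808). Every ATRA array was above every DMSO array. Krt19, another simple keratin, was at 69.6, 79.8 and 66.3 against 180.2, 120.3 and 149, without passing (log2 change 1.05, SE 0.19, adjusted p = 0.253). Krt8, the usual partner of Krt18, had a log2 change of 0.14. The 12 mesothelial and epithelial markers, which include all 3 keratins, summed to 1100 to 1350 with DMSO and 1391 to 1452 with ATRA, and 7 of the 12 were higher. Of the defining mesothelial markers Msln had a log2 change of 0.15, Upk3b one of 0.05, Wt1 one of 0.03 and Upk1b one of -0.97 (adjusted p = 0.986), and Muc16 lay under the lower quartile on all 6 arrays. The part of epithelial cells in the Krt18 change was not tested.

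Ccdc152, a coiled-coil gene of little known function, was the only gene that fell. Probe set 10427399 was at 51.3, 45.8 and 32.0 with DMSO and at 11.6, 13.5 and 18.3 with ATRA. The values are dim throughout, and the same-number differences of -2.15, -1.76 and -0.80 varied (log2 change -1.57, SE 0.22, adjusted p = 0.082, or 0.175 with the block). LE540 arrays were as low as the ATRA arrays, at 13.5, 14.3 and 16.9.

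Genes that were lower with ATRA at an unadjusted p under 0.01 without overlap, other than Ccdc152, did not pass. Ahcyl2, a modulator of ion transport related to the enzyme that splits S-adenosylhomocysteine, was the first gene outside the threshold, at 726, 724 and 702 against 300.3, 385 and 434 (log2 change -0.96, SE 0.14, adjusted p = 0.105). Nemp1, a protein of the inner nuclear membrane, was at 202, 204 and 182 against 76.2, 88.7 and 96.7 (log2 change -1.17, SE 0.23, adjusted p = 0.281). Among the single-gene probe sets of this kind, the largest differences after Ccdc152 were those of Klhl32 (log2 change -1.25, adjusted p = 0.521), Zdhhc20 (-1.24, 0.758) and Hs3st3a1, which sulfates heparan sulfate (-1.19, 0.369). Zdhhc20 was dim, at 62.35, 66.2 and 24.53 against 16.46, 19.2 and 24.22, and its groups were barely separate. Zfp420, a zinc finger protein, had a log2 change of -1.14 (adjusted p = 0.508). Trps1, a GATA-type repressor of cartilage and hair, was at 789, 618 and 693 against 264, 413 and 332 (log2 change -1.07, adjusted p = 0.471). Gfra2, the receptor for neurturin, was at 314, 276 and 307 against 136, 152 and 149 (log2 change -1.04, adjusted p = 0.579). Ace, which makes angiotensin II, was at 1173, 1116 and 1608 against 633, 669 and 597 (log2 change -1.02, adjusted p = 0.632). Probe sets that were over 2-fold lower without overlap numbered 20 (0.0855%), against 87 (0.372%) over 2-fold higher.

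Among the next genes by p, most were higher with ATRA. Cd24a, a glycosylated surface protein, was at 1593, 1668 and 1159 against 4742, 4561 and 3503 (log2 change 1.54, SE 0.23, adjusted p = 0.119, or 0.0585 with the block). Smad3, the transcription factor downstream of TGF-beta and activin receptors, was at 312, 358 and 346 against 534, 532 and 661 (log2 change 0.76, SE 0.12, adjusted p = 0.141). Serpinf1, the antiangiogenic factor PEDF, was at 303, 548 and 316 against 879, 946 and 1072 (log2 change 1.36, SE 0.22, adjusted p = 0.146). The groups were separate for each of these 3 genes. Lmo1, a LIM-only transcriptional cofactor, and Cygb, a globin of fibroblasts, had log2 changes of 1.37 (adjusted p = 0.146) and 1.04 (0.189).

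The replicate block added 13 genes, all higher with ATRA. Of these, 5 also passed with the block in the fit of the 6 arrays (Esm1, Cp, Cd24a, Emcn and Olr1), and the other 8 lay between 0.104 and 0.155 there. Esm1, a proteoglycan of sprouting endothelium, was at 93.5, 303 and 208 with DMSO and at 442, 1509 and 1376 with ATRA. Replicate 1 was lowest in both groups, and the differences were 2.24, 2.32 and 2.73 (adjusted p = 0.565, or 0.00863 with the block). Sprr1a, an envelope protein of stressed epithelia and heart muscle, was at 153, 839.8 and 152 against 1349, 3429 and 1303. Replicate 2 was highest in both groups (log2 change 2.76, SE 0.77, adjusted p = 0.711, or 0.0219 with the block). Cp, the copper oxidase ceruloplasmin, was at 220.0, 179 and 246 against 713, 486 and 790.4 (log2 change 1.61, SE 0.25, adjusted p = 0.141, or 0.00933 with the block).

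Several of the 13 are known from endothelium. Emcn, an endothelial sialomucin, was at 70.5, 306 and 120.3 against 194, 776 and 313, with groups that overlap but differences of 1.46, 1.34 and 1.38 (0.0601 with the block). Calcrl, the receptor subunit for adrenomedullin, was at 824, 576 and 784 against 2824, 1389.8 and 1920.0 (log2 change 1.45, SE 0.26, 0.0225 with the block). Olr1, the receptor for oxidised LDL on endothelium and macrophages, was at 74.0, 190.3 and 53.5 against 500.1, 751 and 341 (log2 change 2.47, SE 0.45, 0.0659 with the block). Aqp1, a water channel, and Adgrg6, an adhesion receptor needed for heart development, had log2 changes of 1.30 (0.0776 with the block) and 1.71 (0.0247). The growth factor midkine (Mdk), the secreted glycoprotein Lrg1 and the predicted gene Gm4788 had log2 changes of 1.25, 1.08 and 1.60 (0.0776, 0.078 and 0.0585 with the block). Of the 16 endothelial markers 15 were higher with ATRA (median 0.31), 2 of them without overlap, against 975 of 19934 genes. All 3 same-number differences were above 0 for 8 of the 16, against 2531 of 19934 genes. Only Emcn passed, with the block. The endothelial marker sum was higher with ATRA in each same-number pair, and its part in these changes was not tested.

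**Figure D4:**
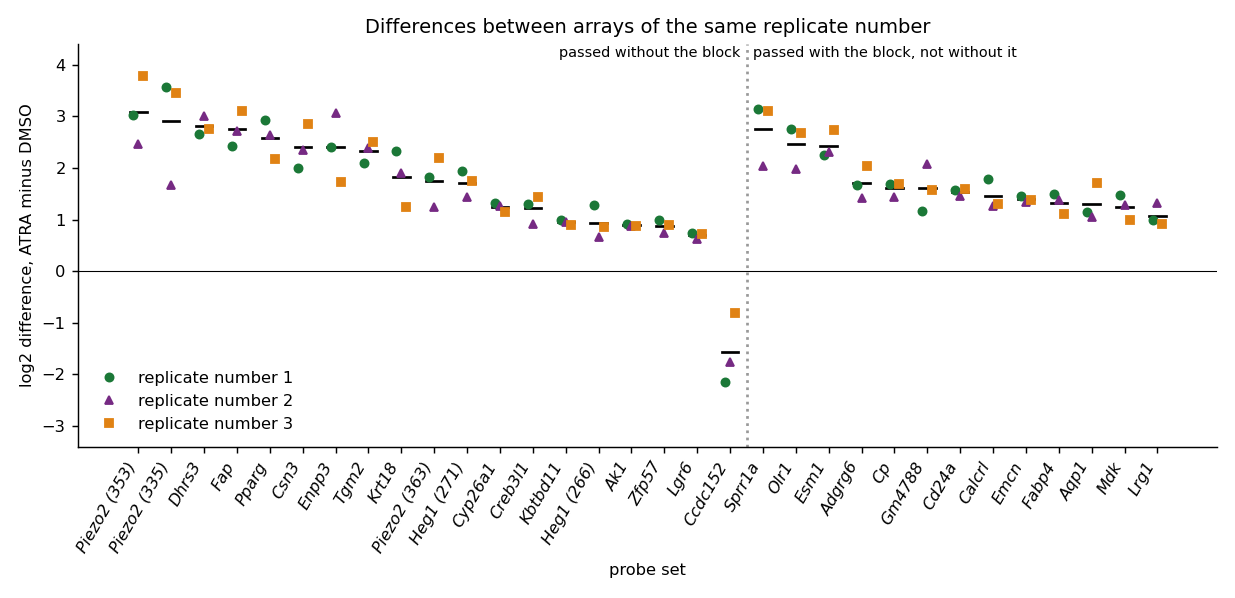
Log2 difference between the ATRA and the DMSO array of the same replicate number (vertical axis; circle, triangle and square for numbers 1, 2 and 3; bar, their mean) for the 19 probe sets that passed without the block and the 13 that passed with the block in the 9-array fit and not without it. All points other than the 3 of Ccdc152 lie above 0.

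BMP and activin genes were mostly higher, with 14 of 18 above 0, a median of 0.12 and 0 calls. Bmp2, a ligand that drives valve cushion formation in the embryo, was at 222, 297 and 153 against 508, 709 and 536, without overlap (log2 change 1.42, SE 0.24, adjusted p = 0.189). Inhba, the activin A subunit, was at 645, 2775 and 719 against 2530.2, 5776 and 3318. The groups overlapped through replicate 2, which was highest in both (log2 change 1.75, SE 0.57, adjusted p = 0.894, or 0.112 with the block). Inhbb, the other activin subunit, had a log2 change of 0.74 (adjusted p = 0.507). Of 12 TGF-beta genes 6 were higher (median 0.00134); the ligand Tgfb3 was at 306, 299.9 and 276 against 554, 475 and 448 (log2 change 0.74, SE 0.20, adjusted p = 0.69).

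Matrix genes were higher in most lists and none passed. Of 19 matrix metalloproteases and inhibitors 19 were higher (median 0.21). Mmp3, stromelysin, was at 150.2, 188 and 91.2 against 261, 2040.2 and 650.5, with same-number differences from 0.80 to 3.44 (log2 change 2.36, SE 0.64, adjusted p = 0.70). Elastic fibre genes were higher in 8 of 11 (median 0.60, or 0.34 without DMSO replicate 1 and 0.37 with dim probe sets filtered at the median). Efemp1, a fibulin, was at 139.6, 74.9 and 159.9 against 591, 204 and 611 (log2 change 1.82, SE 0.46, adjusted p = 0.632), and Fbln1, another, at 437, 228 and 351 against 791, 476 and 794 (log2 change 1.03, SE 0.29, adjusted p = 0.713). In both genes replicate 2 was lowest in each group and the groups did not overlap. Fbn2, the fibrillin of growing tissue, was lower, at 473, 495 and 435 against 297, 326 and 415 (log2 change -0.45, adjusted p = 0.999).

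Fibrillar collagens and crosslinking enzymes were higher in 12 of 16 (median 0.08) and proteoglycans and hyaluronan genes in 13 of 19 (median 0.10). Col1a1, the main fibrillar collagen, was at 627, 538 and 693 against 821, 765 and 978 (log2 change 0.46, SE 0.16, adjusted p = 0.92). Vcan, the large proteoglycan of immature valves, was at 1332, 1636 and 1265 against 3696, 2036 and 2408 (log2 change 0.91, SE 0.21, adjusted p = 0.534). The ATRA arrays exceeded the DMSO arrays in both. Contractile genes of smooth muscle and myofibroblasts were higher in 14 of 16 (median 0.30): Myl9, a myosin light chain, was at 612, 877 and 1370.1 against 1479.5, 1449 and 3539 (log2 change 1.12, SE 0.43, adjusted p = 0.999), and Acta2 overlapped between groups. Interstitial markers, among them Vcan, Col1a1 and Eln, were higher in 11 of 14 (median 0.40), as their sums above show, and the part of cell number in the matrix values was not tested. With the Y-linked covariate the medians of the collagen and proteoglycan lists were -0.011 and -0.0153, and that of the elastic fibre list was 0.85. The proteoglycan median was 0.00791 without DMSO replicate 2 and 0.00563 without ATRA replicate 3.

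**Figure D5:**
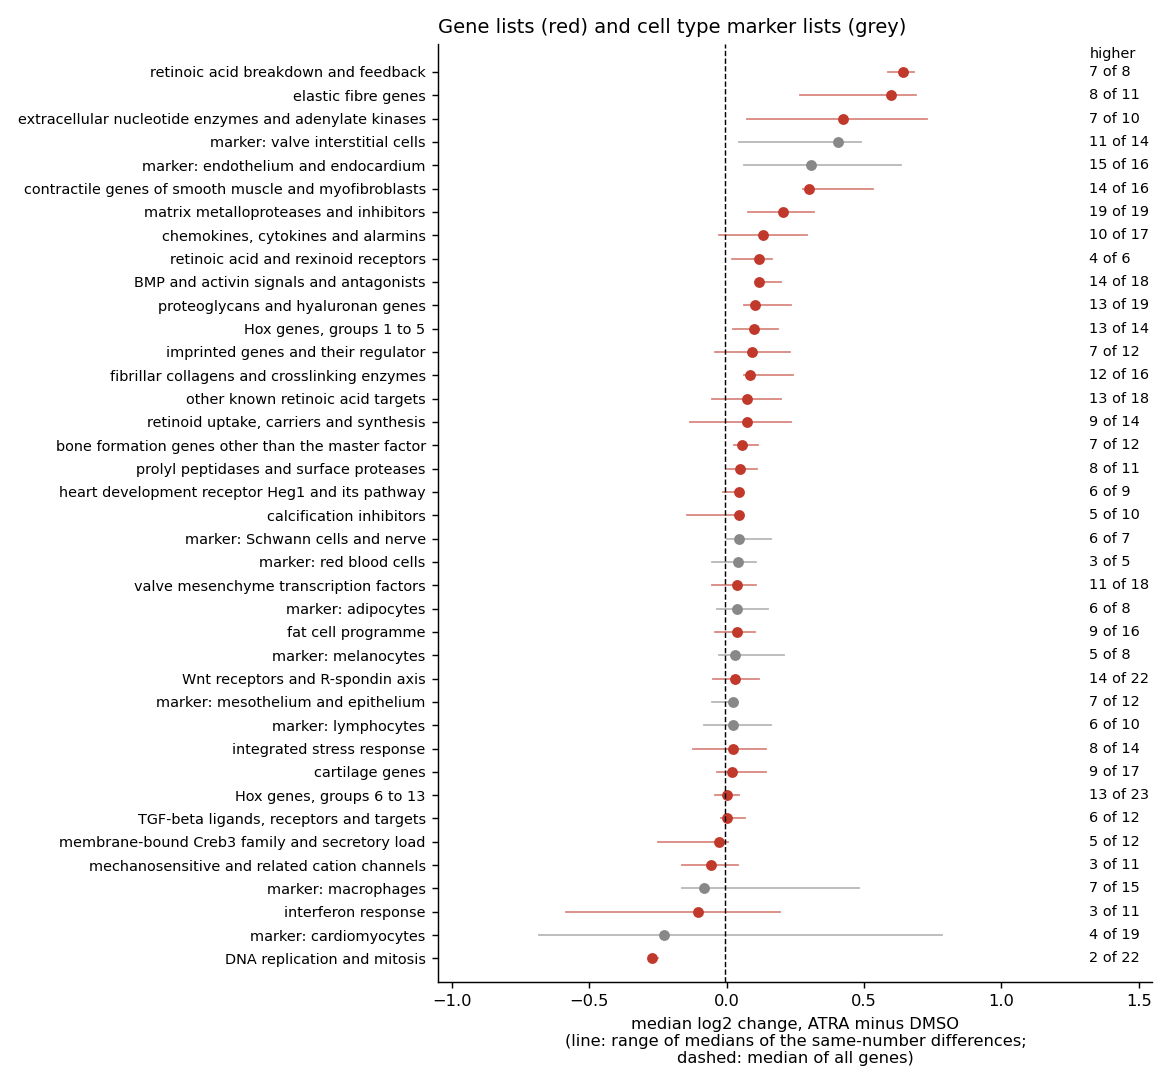
Median log2 change between ATRA and DMSO (horizontal axis) over the measured members of each gene list (red) and cell type marker list (grey), with a line for the range of the medians of the 3 same-number differences and the number of members higher with ATRA at the right. The dashed line is the median of all genes; the retinoic acid breakdown list stands highest at 0.64 and the DNA replication and mitosis list lowest at -0.27.

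DNA replication and mitosis genes were lower in 20 of 22 with 0 calls (median -0.27), and in 12 of the 22 all 3 same-number differences were below 0, against 3287 of 19934 genes. Top2a, the topoisomerase of dividing cells, was at 1007, 1342 and 1373 against 794, 939 and 829.8 (log2 change -0.53, SE 0.39, adjusted p = 0.999). Rrm2, a ribonucleotide reductase subunit, was at 325, 540.3 and 349 against 244, 353 and 234 (log2 change -0.53, SE 0.25, adjusted p = 0.999). The Top2a groups were separate and the Rrm2 groups overlapped. With the Y-linked covariate the median of the list turned to 0.18, and without DMSO replicate 2 it was -0.12.

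Transcription factors of valve mesenchyme were higher in 11 of 18 (median 0.04) with 0 calls. Twist2, a factor of early mesenchyme, was at 182, 214 and 182 against 411, 315 and 299 (log2 change 0.82, SE 0.14, adjusted p = 0.222), and Tbx18 was at 131, 122 and 114 against 64.3, 104 and 104 (log2 change -0.47, adjusted p = 0.999). Both genes had separate groups, in opposite directions. The median of the list was -0.05 without DMSO replicate 2 and -0.03 with the Y-linked covariate.

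No cartilage or bone gene passed. Of 17 cartilage genes 9 were higher (median 0.02). Sox9, the factor that directs cartilage formation, was at 819, 643 and 677 against 772, 603 and 587, with overlapping groups and a 95% interval of -0.47 to 0.22 for the log2 change. Of 12 bone formation genes 7 were higher (median 0.06), and Alpl, the phosphatase of mineralising cells, was at 131, 118 and 109 against 136, 262 and 115, with ATRA replicate 2 far above the rest. Calcification inhibitors were higher in 5 of 10 (median 0.04, or -0.11 without DMSO replicate 2 and -0.07 with the Y-linked covariate). Ank, which exports pyrophosphate, was at 1212, 1260.0 and 1202 against 905, 826 and 726, lower in every ATRA array without passing (log2 change -0.59, SE 0.17, adjusted p = 0.766).

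Stress and immune genes held no call. Of 14 integrated stress response genes 8 were higher (median 0.02, from -0.12 without ATRA replicate 2 to 0.11 without DMSO replicate 2). Slc7a11, the cystine importer, was at 281, 1039 and 271 against 68.1, 223 and 133, lower in each pair (log2 change -1.76, SE 0.58, adjusted p = 0.898). Il33, an alarmin of stromal and endothelial cells, was at 115, 110.3 and 60.6 against 261, 665 and 344, without overlap (log2 change 2.09, SE 0.40, adjusted p = 0.273). Chemokines, cytokines and alarmins were higher in 10 of 17 (median 0.13, or -0.14 without ATRA replicate 2 and -0.18 with dim probe sets filtered at the median), interferon response genes in 3 of 11 (median -0.10, or 0.07 without DMSO replicate 1) and macrophage markers in 7 of 15 (median -0.08, or 0.13 without ATRA replicate 1).

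In the LE540 arrays the levels of the genes that rose with ATRA stayed below every ATRA array, for all 18 probe sets. For 3 of the 19 probe sets that passed, the LE540 arrays also lay below every DMSO array. Heg1 probe set 10435271 was at 289, 369 and 508 there, against 659 or more with DMSO, and Kbtbd11 at 62.0, 55.4 and 55.8, against 70.95 or more. The remaining one was Ccdc152. Since LE540 and ATRA share the DMSO arrays and enter 1 fit, these levels are a description and carry no test.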

How the data were processed

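Per the labels' protocols, total RNA of each pool was converted to cDNA, amplified and labelled with biotin (Nugen), and each pool had its own one-colour array. Per the submitters' processing notes, the authors used Affymetrix Expression Console 1.1 and RMA, which corrects background, quantile-normalises the arrays and summarises probes. Each deposited value is the linear RMA intensity of a probe set on an array; they run from 4.09 to 17798.2, and log2 was taken before testing. Such values never reach 0, signal over background is unknown for dim probe sets, and 3 arrays per group limit the precision. The build and annotation behind the probe sets are not given in the sources used here. Gene symbols came from the platform annotation: 21780 probe sets had 1 symbol, 1617 several and 4873 rows none, which were left out. Of the tested probe sets, 21689 had an Entrez identifier in the RefSeq table, and 0 symbols differed.

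The test was that of limma 3.58.1 (R 4.3.3) in a linear model of 3 groups over 9 arrays (6 residual and 2.72 prior degrees of freedom), two-sided, with Benjamini-Hochberg adjustment over 23397 probe sets. The thresholds, an adjusted p under 0.1 and a change over 2-fold, are those of the series' design text. The fit was tested on simulated data. Replicate numbers pair the ATRA and DMSO arrays by the correlations of their deviations, and not by any label of a shared litter or day, so values of the blocked fit stand where they alter a call or a count.

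The comparison, the members and the gene lists were chosen with earlier results of these data known, so no list is independent evidence. Lists are described by counts and medians over 1 probe set per gene, the brightest (996 genes have several). Named genes are those that passed, the next 12 by p, the 10 largest rises and 15 largest falls at an unadjusted p under 0.01 without overlap, up to 3 members of each list by p, retinoid, cartilage and mineralisation genes and cell type markers fixed by name, and 3 probe sets on either side of the threshold. Other genes given, such as those added by the replicate block, were chosen after their values were seen. Promoter windows are from RefSeq, matched by symbol. Alternatives covered the block, the arrays in the fit, normalisation, filters, the prior, weights, 2 covariates, the threshold and leaving out each array in turn.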

Additional observations from a re-analysis of the deposited data

Results flagged for a closer look

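Outside the comparison of named genes, 3 probe sets with no listed gene passed when all 28270 rows were tested, 2 of them higher and 1 lower with ATRA than in the control arrays. Probe set 10377537 was at 2127, 1977 and 2057 in DMSO replicates 1, 2 and 3 and at 4439, 4358 and 4365 in the ATRA replicates (log2 change 1.10, SE 0.10, limma adjusted p = 0.0109). The LE540 arrays were at 1494, 1730 and 1425, below all DMSO arrays. Probe set 10521678 was at 215, 252 and 252 with DMSO and at 1093, 568 and 814 with ATRA (log2 change 1.74, SE 0.21, limma adjusted p = 0.0494), with LE540 at 138, 115 and 128. Probe set 10450798 was lower, at 56.9, 72.0 and 71.3 with DMSO and at 31.6, 29.4 and 29.8 with ATRA (log2 change -1.13, SE 0.14, limma adjusted p = 0.0494). Its LE540 arrays, at 32.5, 42.8 and 38.5, also lay below all DMSO arrays.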

How the results depend on the processing

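Tgm2, Pparg and Fap passed in every alternative that tested them, 24, 24 and 23, and Csn3 in 21 of 22. At the other end, Creb3l1 and Zfp57 passed in 4 of 24, Lgr6 in 5 of 24 and Ccdc152 in 7 of 22. Krt18 and Heg1 probe set 10435266 passed in 10 of 23 each, and Ak1 in 11 of 24. The remaining probe sets lay between these and Csn3. The 19 passed probe sets kept their direction in all alternatives. Where an array was left out this had to be so, because their ATRA and DMSO arrays did not overlap. Against 19 probe sets that passed (14 over 2-fold), the counts were 29 (26) with the replicate block, 13 (13) with the block and the 6 ATRA and DMSO arrays alone, of which 7 (7) were shared, 9 (8) with these 6 arrays and no block, 9 (7) with dim probe sets filtered at the median, 12 (11) with 1 probe set per gene, 71 (43) with array weights, 7 (7) with the Y-linked score, 8 (7) with the cardiomyocyte score and 8 (7) at an adjusted p under 0.05. Leaving out 1 array gave 4 to 22 (4 to 20 over 2-fold). The filter and the single probe set per gene test fewer probe sets, but Creb3l1, Lgr6 and Zfp57 were still tested in both and did not pass. The cause was not tested for any setting. Adding the replicate block to the 9-array fit changed no call but those given beside the results. The fit of 6 arrays with the block lacked 12 of the 19 calls of the main fit and added 6. Without the block, the fit of 6 arrays also shared 7 calls with the main fit, but not the same 7. Of the calls of the main fit, Dhrs3 and Cyp26a1 passed in the fit of 6 arrays only with the block. Kbtbd11 and Piezo2 probe set 10459353 passed there only without it.

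Named probe sets that changed sign were among those that did not pass. With array weights Cyp26c1 was at -0.0017 and Acan at 0.039. With the Y-linked score Cyp26c1 was at -0.014, Acan at 0.71 and Mgp at 0.072. With the cardiomyocyte score Stra6 was at -0.0028, Mgp at 0.049 and Crabp1 at 0.027. Leaving out 1 array gave -0.020 to 1.00 for Aldh1a2, -0.10 to 0.36 for Crabp2, -0.024 to 0.048 for Stra6, -0.28 to 0.31 for Acan, -0.055 to 0.015 for Mgp and -0.30 to 0.32 for Crabp1. Of the other named values under an alternative, 2581 kept their direction and their side of the threshold, 176 no longer passed and 61 passed where the main fit did not. Of the list medians 905 moved by less than the spread between replicates and 53 by more.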
